A study of Ictalurus punctatus with 14 samples.

Results

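The genes celsr2 (gene 108281038) and nde1 (gene 108277500) of the channel catfish, Ictalurus punctatus, were followed over early development. They are 2 of the 23231 genes in the deposited table of counts, and they were found in it by these gene identifiers. Both were chosen by their expression in these same libraries, from which the study named them hub genes of co-expression modules, so their levels across stages are given as a description with no test. RNA was sequenced from whole fish of the Kansas random strain at 7 stages. These were 2 days post fertilization (dpf) and then every day from 5 to 10 dpf. Each stage had 2 replicate pools of several embryos or larvae of unknown sex, which gave 14 libraries. The paper states that treatments, which it does not name, were stopped before the expected hatch. Their part in the levels was not tested. The stage of 2 dpf is the embryo inside the chorion, the later stages are larvae that use up their yolk, and feed was offered from 7 dpf. All libraries were made from total RNA after depletion of ribosomal RNA. A pool averages over its fish, so the spread between the 2 pools of a stage is not the spread between fish.

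Celsr2 is an adhesion receptor of the cadherin superfamily and a vertebrate relative of the fly protein Flamingo. Celsr proteins sit at the contacts between neighbouring cells, where they work with Frizzled and Vangl proteins to align cells within the plane of an epithelium. In the mouse, Celsr2 is known for its part in the cilia of ependymal cells, in the migration of neurons and in the growth of dendrites. Nde1 is a cytoplasmic scaffold that binds Lis1 and the motor cytoplasmic dynein at the centrosome and the kinetochore. It serves the division of neural progenitors, and loss of Nde1 leads to a small brain in human and mouse.

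Total counts per library lay between 4349807 and 16097718. At these depths 3 counts, taken as the smallest level that a library can show, correspond to 0.186 to 0.690 CPM (counts scaled to an equal library size), a bound that covers counting error only. Each library held at least 69 counts of celsr2 and at least 43 counts of nde1. The 2 libraries of 10 dpf stood apart from each other, with 13.7% of the 20329 genes tested at least 2-fold apart, against 6.18% at 9 dpf and 1.39 to 3.5% at the other stages. Levels are in CPM scaled by TMM, a normalization that sets the bulk of genes equal between libraries. Exon lengths were not used here, so the levels of different genes are not compared with each other.

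The celsr2 transcript was highest in the embryo. At 2 dpf the libraries of replicates 1 and 2 held 78.5 and 73.7 CPM of celsr2 (739 and 706 counts). At 5 dpf they held 18.7 and 19.0 CPM (83 and 113 counts), and at 6 dpf 27.9 and 29.9 CPM (271 and 307 counts). Both libraries of 2 dpf therefore lay above all 12 other libraries, a pattern that 25.3% of all genes tested shared. The fitted log2 fold change from 2 to 5 dpf was -2.01 (approximate SE 0.30), which left 24.8% of the embryonic level. From 2 to 6 dpf it was -1.40 (SE 0.28), with 38.0% left.

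Between 7 and 10 dpf, celsr2 stayed well under its embryonic level and its replicates drifted apart. At 7 dpf the libraries held 19.8 and 21.2 CPM of celsr2, and at 8 dpf 13.7 and 18.0 CPM. At 9 dpf they held 21.1 and 12.8 CPM, and at 10 dpf 16.9 and 35.8 CPM. The higher library of 10 dpf exceeded the lower by 2.12-fold, so that the stage mean of 26.3 ± 13.3 CPM (SD, n = 2) describes neither pool. By stage means the order was 2, 6, 10, 7, 5, 9 and 8 dpf. Among neighbours in this order, the libraries overlapped for 6 and 10 dpf, for 10 and 7 dpf, for 5 and 9 dpf and for 9 and 8 dpf. The lowest stage, 8 dpf, had 15.8 ± 3.06 CPM (SD, n = 2), or 20.8% of the embryonic level. The log2 fold change from 5 to 9 dpf was -0.14 (SE 0.32) and that from 6 to 10 dpf -0.14 (SE 0.29). The first was -0.57 without replicate 1 of 9 dpf and 0.16 without replicate 2. Without replicate 2 of 10 dpf the value of celsr2 from 6 to 10 dpf was -0.69, and without replicate 1 it was 0.30.

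The nde1 transcript was also highest in the embryo, and it then alternated from day to day. At 2 dpf the libraries of replicates 1 and 2 held 35.0 and 38.6 CPM of nde1 (330 and 370 counts). At 5 dpf they held 9.69 and 11.6 CPM (43 and 69 counts), and at 6 dpf 23.7 and 20.6 CPM (230 and 212 counts). The fall from 2 to 5 dpf was a log2 fold change of -1.78 (SE 0.19), and that from 2 to 6 dpf was -0.73 (SE 0.17). The share of the embryonic level that remained was 28.9% at 5 dpf and 60.2% at 6 dpf, so the size of the decline depended on which larval day was set against the embryo.

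At 7 dpf the nde1 level was back at that of 5 dpf, with 8.24 and 11.9 CPM (50 and 80 counts). At 8 dpf it was 17.8 and 20.1 CPM (277 and 174 counts). At 9 dpf it was 10.3 and 10.0 CPM (73 and 54 counts), and at 10 dpf 16.4 and 14.1 CPM (175 and 127 counts). Each step from one sampled day to the next, from 2 to 10 dpf, left the libraries of the neighbouring days without overlap, and 2.52% of all genes tested alternated in this way from 5 to 10 dpf with the higher levels at 6, 8 and 10 dpf. The fitted log2 steps were 1.05 from 5 to 6 dpf, -1.13 from 6 to 7 dpf, 0.90 from 7 to 8 dpf, -0.89 from 8 to 9 dpf and 0.59 from 9 to 10 dpf, with SEs between 0.19 and 0.20. Between stages 2 days apart the log2 fold change of nde1 was -0.08 (SE 0.21) from 5 to 7 dpf and 0.01 (SE 0.21) from 7 to 9 dpf. It was -0.23 (SE 0.18) from 6 to 8 dpf and -0.31 (SE 0.18) from 8 to 10 dpf, with stage means of 22.1, 18.9 and 15.2 CPM at 6, 8 and 10 dpf. By stage means the order was 2, 6, 8, 10, 5, 9 and 7 dpf. The libraries of the last 3 stages overlapped, and each of the first 4 stages stood clear of the next.

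**Figure D1:**
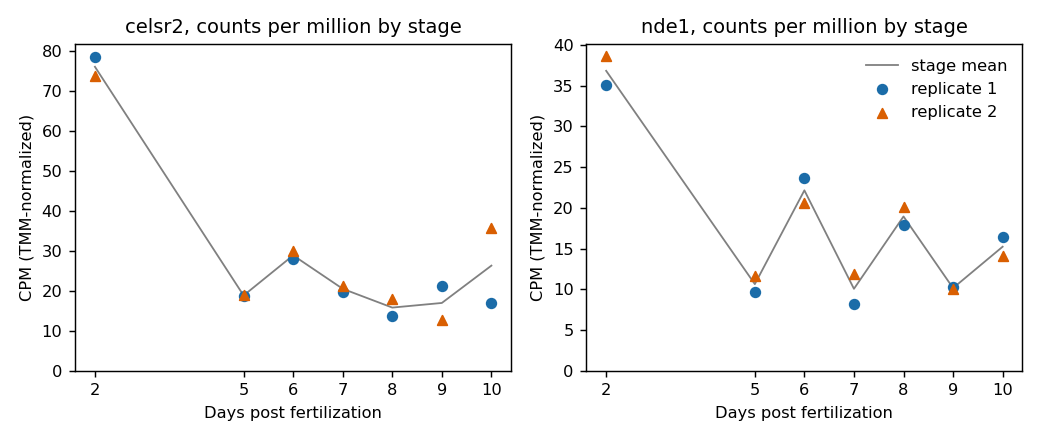
Level of celsr2 (left) and nde1 (right) in CPM against days post fertilization, with a circle for replicate 1, a triangle for replicate 2 and a line through the stage means. Both genes peaked at 2 dpf, the replicates of celsr2 parted at 10 dpf (16.9 and 35.8 CPM), and nde1 was lower at 5, 7 and 9 dpf than at 6, 8 and 10 dpf.

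The 6 libraries of 5, 7 and 9 dpf had 8.24 to 11.9 CPM of nde1 (median 10.2), and the 6 of 6, 8 and 10 dpf had 14.1 to 23.7 CPM (median 18.9). The sets did not overlap, and the ratio of their means was 1.83. Among all genes tested, 340 (1.67%) were higher in the libraries of 6, 8 and 10 dpf without overlap and 442 (2.17%) were lower. With scaling by library totals alone the ranges of nde1 were 8.18 to 11.8 and 15.99 to 23.8 CPM, again without overlap. For celsr2 the corresponding ranges were 12.8 to 21.2 and 13.7 to 35.8 CPM, which overlapped, and the ratio of means was 1.26. Sequencing depth moved with the same split. Totals were 4349807 to 6755272 counts at 5, 7 and 9 dpf and 7944619 to 16097718 counts at 6, 8 and 10 dpf, and the part of depth in the alternation was not tested. The labels give no batch, and whether these days differed in handling was not tested.

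The ratio of celsr2 to nde1 counts within a library needs no scaling between libraries. Since gene length is not taken out, only its changes can be read. At 2 dpf the ratio was 2.24 and 1.91 in replicates 1 and 2, and at 5 dpf 1.93 and 1.64. At 6 dpf it was 1.18 and 1.45, at 7 dpf 2.40 and 1.79, and at 8 dpf 0.765 and 0.897. The ratio was thus about as high at 5 and 7 dpf as in the embryo and lowest at 8 dpf, where both libraries lay under all others. At 9 dpf it was 2.05 and 1.28, and at 10 dpf 1.03 and 2.54, which spans almost the whole range of the series. From 2 to 5 dpf the fitted folds of celsr2 (-2.01) and nde1 (-1.78) differed by less than the SE of the celsr2 value. From 2 to 6 dpf, where celsr2 had -1.40 and nde1 -0.73, the difference in log2 ratio was -0.66.

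**Figure D2:**
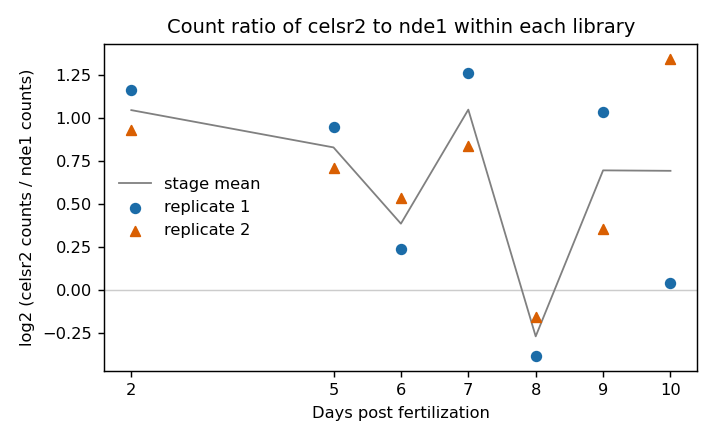
Log2 ratio of celsr2 to nde1 counts in each library against days post fertilization, with a circle for replicate 1, a triangle for replicate 2 and a line through the stage means. The ratio was lowest at 8 dpf (linear 0.765 and 0.897), and the replicates of 10 dpf lay far apart (1.03 and 2.54).

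The alternation of nde1 was set beside its binding partners, in a list of 34 tested genes of the dynein, dynactin and Lis1 pathway. Of these, 2 were higher in the libraries of 6, 8 and 10 dpf without overlap (5.88%, against 1.67% of all genes) and 2 were lower (5.88%, against 2.17%). These 4 genes are described because they showed the pattern. The lower pair were pafah1b1a and pafah1b1b, the catfish copies of the gene for Lis1, the direct partner of Nde1. The higher pair were dync1li2, a light intermediate chain of dynein, and dctn4, a dynactin subunit.

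The level of pafah1b1a was 60.8 to 70.7 CPM in the libraries of 5, 7 and 9 dpf (median 64.7) and 26.2 to 35.9 CPM in those of 6, 8 and 10 dpf (median 32.3). That of pafah1b1b was 53.9 to 67.8 CPM (median 57.5) and 38.6 to 44.9 CPM (median 42.7). Both Lis1 copies were thus high on the days when nde1 was low. Unlike nde1, they had their lowest stage means in the embryo, with 24.6 to 27.7 CPM of pafah1b1a and 25.0 to 28.1 CPM of pafah1b1b at 2 dpf. From 2 to 5 dpf pafah1b1a rose by a log2 fold change of 1.34 (SE 0.16, edgeR quasi-likelihood adjusted p = 2.13e-05) and pafah1b1b by 1.10 (SE 0.13, edgeR adjusted p = 2.68e-05). From 2 to 6 dpf their values were 0.42 and 0.68, short of the threshold of 1 used for a differentially expressed gene (DEG).

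The level of dync1li2 was 43.7 to 55.4 CPM at 5, 7 and 9 dpf and 59.0 to 80.0 CPM at 6, 8 and 10 dpf. That of dctn4 was 15.95 to 30.3 CPM and 30.7 to 51.5 CPM, so that its sets all but touched. In the embryo dync1li2 had 73.0 to 77.8 CPM and dctn4 39.1 to 43.3 CPM, near their levels of 6 dpf. The heavy chain of the motor, dync1h1, named for its role after its values were seen, did not separate the sets, with 812 to 1319 CPM and 1203 to 1706 CPM.

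**Figure D3:**
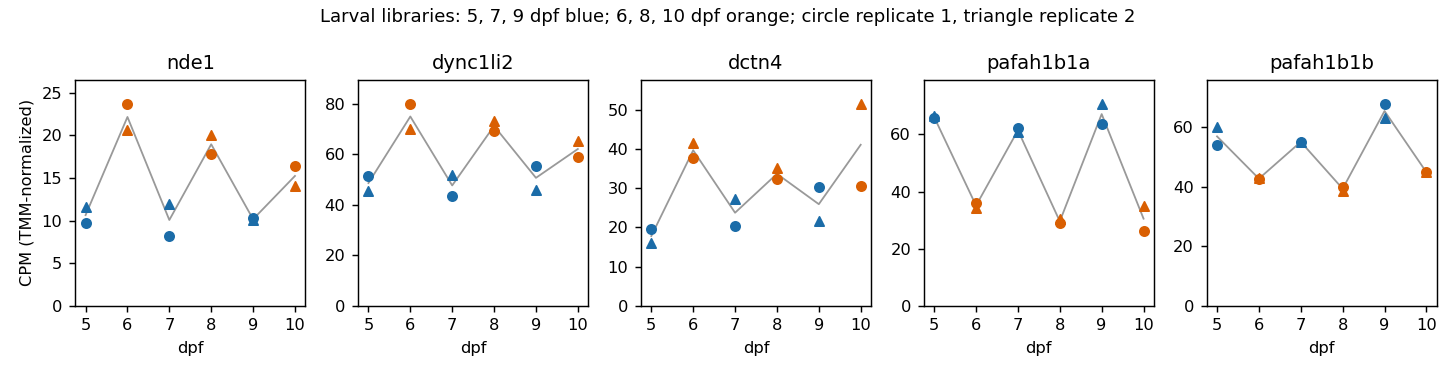
Levels of nde1 and of the 4 genes of the dynein and Lis1 list that separated the sets, in CPM (each axis from 0) against dpf, with 5, 7 and 9 dpf in blue, 6, 8 and 10 dpf in orange, circles for replicate 1 and triangles for replicate 2. nde1, dync1li2 and dctn4 were higher at 6, 8 and 10 dpf, and pafah1b1a and pafah1b1b were lower.

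Paralogs share sequence, and the sources used here do not say how reads from near-identical stretches were counted. The values of the Celsr genes, of nde1 and ndel1b and of both Lis1 copies carry that uncertainty. celsr1b, a close relative of celsr2, had 79.8 and 66.3 CPM at 2 dpf and 33.6 and 32.1 CPM at 5 dpf. It fell with celsr2, by a log2 fold change of -1.15 (SE 0.19, edgeR quasi-likelihood adjusted p = 0.000305), and 11.9% of all genes tested were called lower in this comparison. With library totals alone its value was -0.95, short of the threshold. At 6 dpf it had 41.3 and 43.9 CPM, and the log2 fold change from 2 dpf was -0.78 (edgeR adjusted p = 0.00355), which was not called. Its stage means then stayed between 48.7% and 58.6% of the embryonic mean from 6 to 10 dpf, above the shares kept by celsr2, which were 20.8% to 38.0%.

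celsr1a had 96.6 and 94.0 CPM at 2 dpf, 64.9 and 62.1 CPM at 5 dpf and 139 and 127 CPM at 6 dpf. Its rise from 5 to 6 dpf was a log2 fold change of 1.07 (SE 0.21, edgeR quasi-likelihood adjusted p = 0.00497), in a comparison where 7.34% of all genes were called higher. celsr3, which serves axon guidance in the mouse, had 42.4 and 35.3 CPM at 2 dpf and 39.9 and 45.2 CPM at 5 dpf, with a log2 fold change of 0.13 (edgeR adjusted p = 0.716). At 10 dpf celsr3 had 57.2 and 112 CPM in replicates 1 and 2, so the library with the higher celsr2 level also had the higher celsr3 level.

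ndel1b, the paralog of nde1 that also binds Lis1 and dynein, did not fall with nde1. It had 30.1 and 28.7 CPM at 2 dpf and 42.4 and 39.6 CPM at 5 dpf, with a log2 fold change of 0.48 (edgeR quasi-likelihood adjusted p = 0.0329), below the size that makes a DEG. At 6 dpf it had 25.8 and 28.2 CPM. In the larval libraries its ranges, 27.1 to 42.4 CPM at 5, 7 and 9 dpf and 25.8 to 35.5 CPM at 6, 8 and 10 dpf, overlapped. celsr1a, celsr1b and celsr3 did not separate these sets either.

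**Figure D4:**
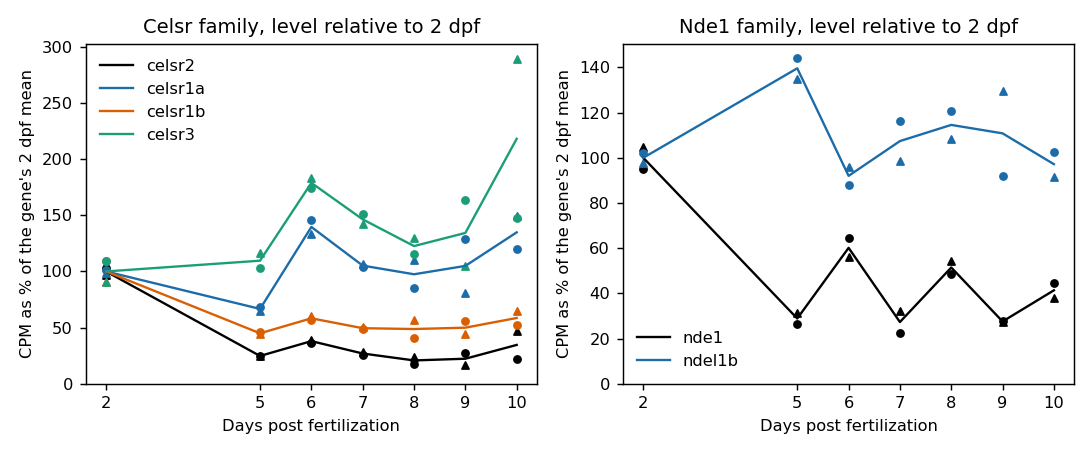
Levels of the Celsr genes (left) and of nde1 and ndel1b (right) as a percent of each gene's own mean at 2 dpf, with circles for replicate 1, triangles for replicate 2 and lines through the stage means. celsr2 kept stage means of 20.8 to 38.0% of its embryonic level in the larvae and celsr1b 44.9 to 58.6%, while the stage means of ndel1b stayed at 92.0% or above.

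Lists of genes around the roles of celsr2 and nde1 were counted by the rule for a DEG, that is an edgeR adjusted p under 0.05 with a log2 fold change of 1 or more in either direction. From 2 to 5 dpf, 33.2% of all genes tested were DEGs, 21.3% higher and 11.9% lower, with a median log2 fold change of 0.02. In whole-fish RNA, fewer cells of a type and less RNA per cell cannot be told apart. This holds for celsr2 and nde1 as well, and the cells that held their transcripts were not identified by these libraries.

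The planar polarity list holds partners of celsr2 and also other polarity genes. Few of its genes reached the size of a DEG between embryo and larva. Of 30 tested, 1 rose and 1 fell from 2 to 5 dpf (6.67%, against 33.2% of all genes), with a median log2 fold change of -0.04. At an unadjusted p under 0.05 in edgeR, 2 of the 30 were higher and 10 lower at 5 than at 2 dpf. At 6 against 2 dpf, 8 were higher and 5 lower. The share of all genes at this threshold was not counted, so these counts give no result about the list. Of the 2 DEGs from 2 to 5 dpf, 1 fell and 1 rose. The gene that fell was ankrd6b, a relative of the fly polarity gene diego, from 24.0 ± 0.155 to 11.8 ± 0.422 CPM (SD, n = 2), a log2 fold change of -1.02 (SE 0.19, edgeR adjusted p = 0.000707). The gene that rose was prickle2a, which had at most 2 counts in a library of 2 dpf and 7.10 ± 0.165 CPM at 5 dpf. The total of 2 became 1 when replicate 1 of 5 dpf, either replicate of 6 dpf, replicate 1 of 9 dpf or replicate 2 of 10 dpf was left out. vangl2, the core partner of the Celsr proteins and named for its role after its values were seen, had a log2 fold change of -0.54 (SE 0.17, edgeR adjusted p = 0.0154) and was not called. From 2 to 6 dpf 2 of the 30 rose and 1 fell (10.0%), where 23.5% of all genes were called higher and 9.64% lower. The receptor fzd3a fell by 1.21 on the log2 scale (SE 0.17, edgeR adjusted p = 7.54e-05). prickle2a rose by 5.13 (SE 0.51, edgeR adjusted p = 5.5e-06) and dchs1a, a large cadherin, by 1.03 (SE 0.17, edgeR adjusted p = 0.000269). From 2 to 5 dpf dchs1a had -0.52 (edgeR adjusted p = 0.0249), so its direction depended on the larval day.

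In the dynein and Lis1 list, 6 genes rose and 2 fell from 2 to 5 dpf, with a median log2 fold change of 0.02. The share called was 23.5%, below the 33.2% of all genes. The largest rises were those of dynll2a, a dynein light chain, at 2.96 (SE 0.27, edgeR adjusted p = 3.78e-06), and of bicd1a, a cargo adaptor of dynein, at 2.42 (SE 0.30, edgeR adjusted p = 3.4e-05). The falls were those of dctn4 at -1.22 (SE 0.26, edgeR adjusted p = 0.00159) and of spdl1, a kinetochore recruiter of dynein, at -1.06 (SE 0.20, edgeR adjusted p = 0.000686). From 5 to 9 dpf, where 14.9% of all genes were DEGs, none of the 34 was called by edgeR or by DESeq2. At an unadjusted p under 0.05, 4 were higher and 11 lower in edgeR, and 5 were higher and 9 lower in DESeq2. All genes were not counted at this threshold, so these counts give no result about the list. Without replicate 2 of 9 dpf edgeR called some of the 34 as DEGs, and more of all genes were called as well.

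Cell cycle genes had the same direction as celsr2 and nde1 over this interval. Of 43 tested, 22 fell from 2 to 5 dpf (51.2%, against 11.9% of all genes), with a median log2 fold change of -1.002. With library totals alone 15 were called. cdc6, which licenses replication origins, fell from 26.3 ± 1.01 to 5.70 ± 1.68 CPM (SD, n = 2), a log2 fold change of -2.18 (SE 0.23, edgeR adjusted p = 8.3e-06). mcm4, a subunit of the replicative helicase, fell by 1.79 (SE 0.16, edgeR adjusted p = 2.94e-06). In 42 of the 43 genes both libraries of 2 dpf lay above the 12 others (97.7%, against 25.3% of all genes).

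Microcephaly genes were listed because loss of Nde1 leads to a small brain, together with other centrosome and spindle genes. The list shares kif11 with the cell cycle list and cep63 with the dynein list. Of its 27 genes tested, 12 fell from 2 to 5 dpf. The list median was -0.92, and 44.4% were called lower, against 11.9% of all genes. stil, needed for the duplication of centrioles, fell by 1.78 on the log2 scale (SE 0.23, edgeR adjusted p = 5.28e-05), and tacc3, a spindle protein, by 1.76 (SE 0.18, edgeR adjusted p = 6.87e-06). With library totals alone 6 were called. From 2 to 6 dpf 1 of the 27 was called lower (3.7%, against 9.64% of all genes). It was mcph1 at -1.23 (SE 0.18, edgeR adjusted p = 0.000117). The list median was -0.57 in this comparison, against 0.03 for all genes. Across these days nde1 also stood closer to its embryonic level at 6 dpf than at 5 dpf. In 18 of the 27 both libraries of 2 dpf were above all others (66.7%). No cell cycle, microcephaly or progenitor gene separated the libraries of 5, 7 and 9 dpf from those of 6, 8 and 10 dpf. Of all genes, 1.67% were higher and 2.17% lower at 6, 8 and 10 dpf without overlap. In lists of 43, 27 and 39 tested genes, a count of 0 is near that share. Of 30 planar polarity genes prickle3 was higher on these days. Of 37 neuron genes neurod1 was higher and tubb5 lower.

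Neural progenitor genes moved both ways. Of 39 tested, 10 rose and 12 fell from 2 to 5 dpf (56.4% called, against 21.3% of all genes higher and 11.9% lower), with a median of -0.37. In 16 of the 39 both libraries of 2 dpf lay above the 12 others, as they did for celsr2 and nde1 (41.0%, against 25.3% of all genes). notch1a, a receptor that holds progenitors back from becoming neurons, fell from 150 ± 1.44 to 31.0 ± 0.134 CPM (SD, n = 2), a log2 fold change of -2.28 (SE 0.27, edgeR adjusted p = 2.28e-05). sox19a, an early neural transcription factor, fell by 2.38 (SE 0.57, edgeR adjusted p = 0.0039), with at most 6 counts in a library of 5 dpf. fabp7a, a fatty acid binding protein of radial glia, rose from 83.4 ± 6.94 to 638 ± 4.93 CPM (SD, n = 2), by 2.93 (SE 0.21, edgeR adjusted p = 5.67e-07), and prom1a, a membrane protein of apical protrusions, by 2.33 (SE 0.28, edgeR adjusted p = 2.99e-05). The summed level of the list was 2804 to 2891 CPM at 2 dpf and 1745 to 2524 CPM in the 12 later libraries.

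Neuron genes went the opposite way. Of 37 tested, 35 rose from 2 to 5 dpf (94.6%, against 21.3% of all genes), with a median log2 fold change of 3.01. Both celsr2 and nde1 declined over the same interval. neurod6a, a transcription factor of young neurons, had at most 1 count in a library of 2 dpf and 11.0 ± 0.0908 CPM (SD, n = 2) at 5 dpf. With all tested genes required to have at least 10 counts in every library, 22 neuron genes were called. Muscle genes rose too, from a summed 1066 to 1256 CPM at 2 dpf to 16206 to 43313 CPM later, and the part of such shifts in tissue make-up in the levels of celsr2 and nde1 was not tested.

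**Figure D5:**
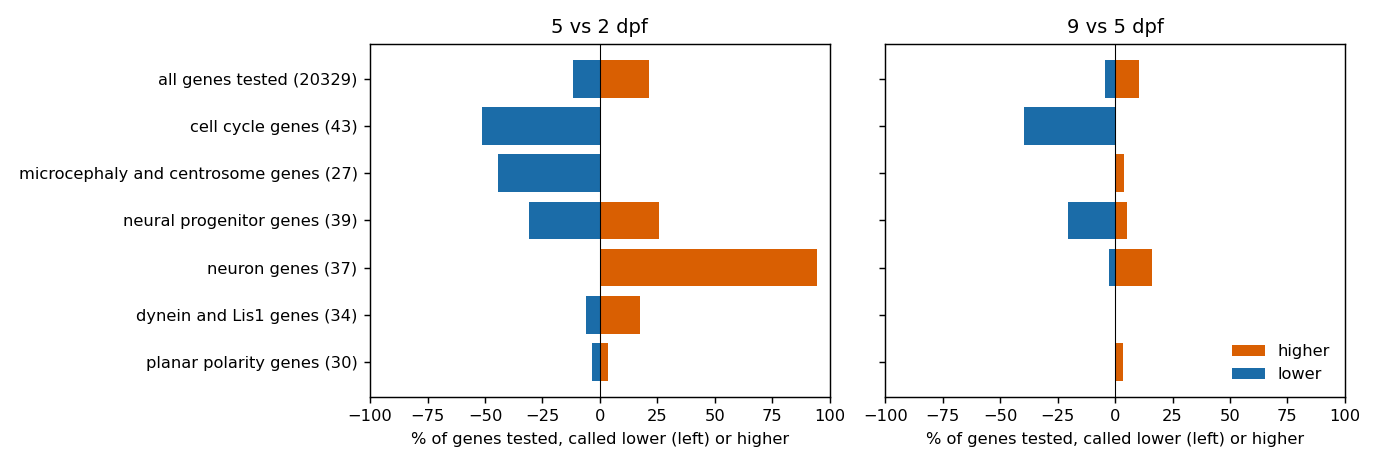
Percent of the genes tested in each list that were DEGs from 2 to 5 dpf (left) and from 5 to 9 dpf (right), with genes called lower drawn to the left of 0 and genes called higher to the right, and the number tested in parentheses. Cell cycle genes were called lower in both intervals (22 and 17 of 43), and neuron genes were called higher from 2 to 5 dpf (35 of 37).

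Over the larval days many cell cycle genes and some progenitor genes fell. From 5 to 9 dpf the log2 fold change was -0.14 (SE 0.32) for celsr2 and -0.07 (SE 0.21) for nde1, while 17 of 43 cell cycle genes fell, with a median of -0.89. The largest of these falls were those of aurkb, a mitotic kinase, by 1.39 (SE 0.27, edgeR adjusted p = 0.00332), and of cdca8, its partner in the chromosomal passenger complex, by 1.35 (SE 0.27, edgeR adjusted p = 0.00403). In the same interval 4.33% of all genes were called lower and 10.5% higher. Without replicate 1 of 9 dpf fewer cell cycle genes were called, as over all genes. Of the progenitor genes 8 fell, among them dla and nes with log2 fold changes of -1.36 and -1.33, and 2 rose, notch2 by 2.41 and notch3 by 1.20 (edgeR adjusted p = 0.00492, 0.000134, 5.47e-05 and 0.00394). Fewer progenitor genes, too, were called without replicate 1 of 9 dpf. In the planar polarity list 1 of 30 was called (median 0.07) and in the microcephaly list 1 of 27 (median -0.14), and the dynein list, with none called, had a median of -0.17.

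From 6 to 10 dpf the picture for the cell cycle was stronger. The log2 fold change was -0.54 (SE 0.18) for nde1, and 37 of 43 cell cycle genes fell, with a median of -1.17, against 4.85% of all genes called lower. cdca8 fell by 1.70 (SE 0.26, edgeR adjusted p = 0.00103) and ccnb1, a mitotic cyclin, by 1.61 (SE 0.23, edgeR adjusted p = 0.000635). The larger count of cell cycle genes did not hold without replicate 2 of 10 dpf. Fewer of all genes were called there as well, though by a smaller share. In replicate 2 relative to replicate 1 of 10 dpf the median log2 difference of cell cycle genes was -0.55. Without replicate 2 the log2 fold change of nde1 was -0.35. Among all DEGs from 6 to 10 dpf the share of higher genes was 62.8%. With the RLE size factors of DESeq2 in place of TMM it was 73.0%.

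The pools of 10 dpf differed along these lists. In replicate 2 relative to replicate 1 the median log2 difference was 0.64 for neuron genes, of which 6 of 37 (16.2%) were at least 2-fold higher, against 4.53% of all genes. The median was -0.55 for cell cycle genes, 0.27 for neural progenitor genes and 0.12 for planar polarity genes. celsr2 was 2.12-fold higher in replicate 2, which puts it among the 4.53% of all genes at least 2-fold higher there. This was the direction of the neuron median and also of the progenitor and planar polarity medians. nde1, with 16.4 and 14.1 CPM, was not higher in replicate 2. With 2 pools per stage this difference has no replicate of its own.

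Genes whose levels followed celsr2 or nde1 most closely were ranked by Pearson's r of log2 CPM across libraries, among 13173 genes with a symbol and a mean of at least 5 CPM. The coefficients describe these libraries and carry no p, since libraries of a stage share their age and the embryo dominates the range. Over all 14 libraries the genes most like celsr2 were camsap2a (r = 0.964), which caps microtubule minus ends, si:ch211-212k18.5 (0.963), greb1 (0.962), the homeobox gene meis3 (0.962) and the histone methyltransferase gene ehmt1b (0.960). celsr1b reached 0.952, and 0.0443% of all genes were closer to celsr2. The genes most like nde1 were ap2m1b (0.972), a clathrin adaptor subunit, carm1 (0.957), an arginine methyltransferase, psma5 (0.957), a proteasome subunit, wdr83 (0.954) and si:ch1073-459b3.2 (0.953). Between celsr2 and nde1 themselves r was 0.744, and 8.24% of all genes were closer to celsr2 than nde1 was.

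Without the embryo the neighbours changed. Over the 12 larval libraries the genes most like celsr2 were tbc1d12a (r = 0.973), dcc (0.962), a netrin receptor of growing axons, stox2b (0.944), cep112 (0.943) and kif16ba (0.941). None of the 5 was among the 5 over 14 libraries. The larval range of celsr2 ran from replicate 2 of 9 dpf (12.8 CPM) to replicate 2 of 10 dpf (35.8 CPM). Replicate 1 of these stages had 21.1 and 16.9 CPM. The part of such differences between pools in these r values was not tested. The r of celsr2 with celsr3 was 0.871, and with nde1 it was 0.297, below the values for 29.8% of all genes. For nde1 the closest were ap2m1b (0.962), rpl21 (0.937), sacm1la (0.933), wnt9a (0.932) and boc (0.926), of which ap2m1b also led over 14 libraries. At 5, 7 and 9 dpf ap2m1b had 117 to 127 CPM. At 6, 8 and 10 dpf it had 148 to 213 CPM, so it alternated with nde1. This is no independent evidence, since ap2m1b was picked for its likeness to nde1 over these libraries.

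The co-expression modules that the study built from these samples list celsr2 with 248 other tested genes and nde1 with 137. The lists were made on these libraries and are no independent evidence of a direction. From 2 to 5 dpf 21.3% of all genes were called higher and 11.9% lower. Of the 248 genes listed with celsr2, 201 were called higher and 9 lower. Their median log2 fold change was 2.12, where celsr2 itself had -2.01. Of the 137 genes listed with nde1, 94 were called higher and 13 lower, with a median of 1.34, where nde1 had -1.78. From 2 to 5 dpf both genes thus ran opposite to the larger number of the genes listed with them. From 2 to 6 dpf 23.5% of all genes were called higher and 9.64% lower. There 174 of the 248 were called higher and 7 lower. Of the 137, 47 were called higher and 0 lower, with a median of 0.66, where nde1 had -0.73. Against the mean profile of its list over 14 libraries, r was -0.977 for celsr2 and -0.965 for nde1, and over the 12 larval libraries -0.914 and -0.920.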

How the data were processed

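The deposited table holds the authors' raw counts of reads per gene for 14 libraries. Per the labels and the methods, the authors trimmed reads with Trimmomatic 0.36, aligned them with STAR 2.7.0 and counted them with HTSeq. The genome build, annotation and strand setting are not given in the sources used here. Of 23235 lines, 7 shared a gene identifier with another and were summed, leaving 23231 genes. Symbols came from RefSeq (Coco_2.0) for 21834. No annotated gene overlapped nde1 there, and celsr2 was not placed on a named chromosome.

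All libraries were fitted together in edgeR 4.0.16 (R 4.3.3) with TMM, its low-count filter (20329 genes tested), a mean per stage and the quasi-likelihood test with Benjamini-Hochberg adjustment. DEGs were genes with an adjusted p under 0.05 and a log2 fold change of 1 or more in either direction. SEs are approximate values taken from the fold and the F statistic. p-values measure the spread between pools of a stage. DESeq2 1.42.0, RLE factors, library totals, other filters, a replicate block and leaving out each library were tried as alternatives. The code was tested on simulated data.

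The rule for named genes took, from each list, the 2 largest rises and 2 largest falls among DEGs with at least 5 CPM at the higher stage, every paralog, and the 5 genes most like each member. Not every gene that it took is reported here. The members and lists were chosen with earlier results of these data known. Columns of the study's own comparisons were not used. From its module tables the gene names alone were taken.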

Additional observations from a re-analysis of the deposited data

How the results depend on the processing

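Every alternative kept celsr2 and nde1 lower at 5 than at 2 dpf. From 2 to 5 dpf the log2 fold change of celsr2 was -1.80 with library totals alone and -1.90 with at least 10 counts in every library, and that of nde1 was -1.57 with totals. Totals moved the median of all genes from 0.02 to 0.23, and the share of higher genes among DEGs from 64.2% to 75.3%. With 6 in place of 5 dpf the values were -1.40 for celsr2, -0.73 for nde1 and -0.66 for their log2 ratio. celsr1b had -0.95 with totals and then lost its call. With single libraries left out, from 2 to 5 dpf, celsr2 ranged from -2.06 to -1.97, nde1 from -1.90 to -1.63 and the ratio from -0.35 to -0.10. From 5 to 9 dpf they ranged from -0.57 to 0.16, -0.19 to 0.08 and -0.46 to 0.22, so no direction of either gene is given there. With 10 vs 6 dpf in place of 9 vs 5 dpf nde1 had -0.54. Comparisons without replicate 1 or 2 of 10 dpf were added after seeing the data, and gave nde1 -0.66 and -0.35, celsr2 0.30 and -0.69 and the log2 ratio 0.96 and -0.34, where the ratio with all libraries was 0.40, so its direction turned without replicate 2.

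Counts of list genes called moved as follows. From 2 to 5 dpf, planar polarity genes were 1 with totals, 1 with no filter and 0 with at least 10 counts (1 to 2 with libraries left out), microcephaly genes 6 with totals and 1 at 6 vs 2 dpf (9 to 13), and neuron genes 22 with at least 10 counts (33 to 35). With totals 7 dynein, 15 cell cycle and 19 progenitor genes were called. Ranges with libraries left out were 7 to 8 for dynein, 19 to 23 for cell cycle and 20 to 22 for progenitor genes. From 5 to 9 dpf they were 1 to 2 for planar polarity, 0 to 4 for dynein, 9 to 21 for cell cycle, 0 to 2 for microcephaly, 6 to 12 for progenitor and 1 to 9 for neuron genes. For neuron genes, the 7 called became fewer without either replicate of 5 dpf or without replicate 1 of 9 dpf. Over all genes fewer were called in these fits as well. With at least 10 counts, 11 cell cycle and 3 neuron genes were called. At 10 vs 6 dpf the counts were 3 planar polarity, 2 dynein, 37 cell cycle, 6 microcephaly, 2 progenitor and 13 neuron genes. Without replicate 1 of 10 dpf they were 5, 7, 38, 8, 6 and 19 in this order, and without replicate 2 they were 1, 1, 11, 3, 2 and 5. Over all genes, too, more were called without replicate 1 of 10 dpf and fewer without replicate 2. The moves between these fits are therefore not read as results about the lists. The cause of the moves in list counts was not tested.

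Replicate numbers do not pair the pools. Same-numbered libraries had correlated deviations of 0.0276 (5 and 2 dpf) and 0.00470 (9 and 5 dpf) over 20329 genes. With the replicate block celsr2 had -2.02 and nde1 -1.78 from 2 to 5 dpf, -0.12 and -0.07 from 5 to 9 dpf, and 6708 and 2885 genes were called where 6757 and 3021 were called without it. The block changed no list's count by more than 1.5 times. Depth limits nde1 most at 5 dpf, with 43 and 69 counts.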
